A study of Saccharomyces cerevisiae with 18 samples.

Results

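The genes described here encode proteins of the yeast mitochondrial ribosome. They were taken as the genes with a probe set of their own whose symbol is MRPL, MRPS, MRP or RSM followed directly by a number; where a gene had several such probe sets, the brightest on average was used. The rule found 67 of the 5656 genes on the array. Of these, 38 belong to the large subunit and 28 to the small subunit. The remaining member, MRP8, carries the symbol but is not known as a ribosomal protein and was put in neither subunit.

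Mitochondrial ribosomes make the few proteins that mitochondrial DNA still encodes, most of them core subunits of the respiratory chain and of ATP synthase. Nearly all of their own proteins are encoded in the nucleus, made in the cytosol and imported. The small subunit binds the messenger RNA and holds the decoding site, and the large subunit forms the peptide bonds and feeds the new chain into the inner membrane. Budding yeast represses respiration in glucose and depends on it in ethanol.

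The study asked how the dosage of FAR1, an inhibitor of the G1 cyclin-dependent kinase, alters the transcript pattern in either carbon source. RNA of Saccharomyces cerevisiae was measured on 18 Affymetrix yeast S98 arrays, 3 independent cultures for each of 6 groups. The groups were FAR1OE in ethanol and in glucose, far1Δ in ethanol and in glucose, and wild type in ethanol and in glucose, all in exponential growth in synthetic complete medium. Every strain was of the W303-1A background, labelled MATa, with can1-100, ura3-1, trp1-1, leu2-3 with leu2-112, his3-11 and ade2-1. FAR1OE carried in addition the plasmid pTet-FAR1-15Myc, whose name gives a Tet promoter and a Myc tag. In far1Δ the gene was deleted, with far1::his3 as the relevant genotype, and wild type carried neither change.

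FAR1 itself was read first as a check of the labels. Its deposited intensity was 2554, 2722 and 3.3 in FAR1OE in ethanol, 4.8, 5.3 and 2596 in far1Δ in ethanol, and 29.3, 17.9 and 25.5 in wild type in ethanol. The third ethanol array labelled FAR1OE and the third labelled far1Δ therefore went against their labels, and the main counts and calls that rest on them are also given without this pair. In glucose FAR1 followed the labels, with 557 to 1020 in FAR1OE, 4.1 to 7.0 in far1Δ and 19.7 to 27.3 in wild type. ADH2, a gene of ethanol use, was at 3009 to 4658 in the ethanol arrays against 9.0 to 27.0 in the glucose arrays, and by this gene no array went against its carbon source label. The deposited intensity of HIS3 was 127 to 291 in FAR1OE, 136 to 340.0 in far1Δ and 6.4 to 10.2 in wild type, over both carbon sources. The first and the third FAR1OE glucose arrays had an actin 3′ to 5′ log2 ratio of 8.06 and 8.87, against 0.32 to 1.04 in the other 16, and main counts and calls are given without them too. Although the labels say MATa, the α-factor gene MF(ALPHA)1 read 446 to 2399 and the a-cell receptor gene STE2 0.1 to 2.4 over all arrays. Array medians of the deposited intensities ran from 8.5 to 23.8, so values below are quantile normalized intensities unless said otherwise, and levels are compared between groups of one gene, never between genes. A change is thus relative to the other genes of the array, and less RNA of a gene per cell cannot be told apart from more RNA of the others.

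In ethanol most mitochondrial ribosomal protein genes were higher than in glucose, in both subunits and by moderate amounts. The median log2 change over the 67 genes was 0.24 in FAR1OE, 0.67 in far1Δ and 0.52 in wild type, where 1 is a doubling, beside medians of -0.09, -0.01 and 0.0015 over all 5545 genes tested in the same strains. In FAR1OE 15 of the 67 rose past an adjusted p of 0.05 in limma, against 17.4% of all genes. In far1Δ 46 rose, against 21.7% of all genes, and in wild type 39 rose, against 22.4%. No member fell past the threshold in any strain, whereas 22.8% of all genes did in FAR1OE, 21.2% in far1Δ and 20.9% in wild type. The share in FAR1OE was thus close to the share of all genes tested, 22.4% of members (15 of 67) beside 17.4%. In wild type 23 rose when the first glucose array was left out, and on the deposited scale, where the median of all genes moved to 0.66, 63 rose.

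The signs were nearly uniform. The log2 change was above 0 in 60 members in FAR1OE, 66 in far1Δ and 64 in wild type, and in 57 members it was above 0 in all 3 strains. All 3 ethanol arrays lay above all 3 glucose arrays for 23 members in FAR1OE (20.6% of all genes), 50 in far1Δ (26.6%) and 45 in wild type (27.6%). The reverse separation was seen for 2 members in FAR1OE, where 29.4% of all genes showed it, and for 0 in far1Δ (26% of all genes) and 0 in wild type (27.2%). Without the ethanol pair 52 members were above 0 in FAR1OE and 67 in far1Δ, and ethanol lay above glucose on all remaining arrays for 23 members in FAR1OE (23.9% of all genes) and 63 in far1Δ (30.7%). Without the first and the third FAR1OE glucose arrays 64 were above 0 in FAR1OE, and 52 lay above the 1 glucose array left (35.4% of all genes).

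The subunits had like medians in each strain. In FAR1OE 7 of 38 large subunit genes and 7 of 28 small subunit genes rose, with median log2 changes of 0.25 and 0.21. These are 18.4% of the large and 25% of the small subunit genes, near the 17.4% of all genes for the large subunit and somewhat above it for the small. In far1Δ 25 of 38 large and 20 of 28 small subunit genes rose, with medians of 0.65 and 0.67 and shares of 65.8% and 71.4% beside 21.7% of all genes. In wild type 23 of 38 large and 15 of 28 small subunit genes rose, with medians of 0.55 and 0.51 and shares of 60.5% and 53.6% beside 22.4% of all genes. The remaining call in FAR1OE, in far1Δ and in wild type was MRP8. With the ethanol pair left out, the medians of the large and the small subunit were 0.21 and 0.19 in FAR1OE and 0.80 and 0.77 in far1Δ.

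A score per array showed how closely the subunits moved. For each array it is the median, over the genes of a subunit, of the log2 value minus that gene's mean in wild type glucose. In ethanol the large subunit score was 0.45, 0.36 and 0.46 in FAR1OE, 0.63, 0.62 and 0.10 in far1Δ and 0.63, 0.43 and 0.61 in wild type. The small subunit score of the same arrays was 0.47, 0.25 and 0.62 in FAR1OE, 0.53, 0.65 and 0.28 in far1Δ and 0.51, 0.50 and 0.61 in wild type. The third far1Δ ethanol array, 1 of the pair that went against their labels, was low in both.

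In glucose the large subunit score was 0.16, -0.03 and 0.30 in FAR1OE, -0.21, -0.28 and -0.14 in far1Δ and -0.17, 0.11 and 0.09 in wild type. The small subunit score was 0.10, -0.10 and 0.24 in FAR1OE, -0.17, -0.19 and -0.20 in far1Δ and -0.21, 0.09 and 0.11 in wild type. The 3 far1Δ arrays lay close together, and the first wild type array stood below the other two in both subunits.

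The difference of the scores, large minus small, was -0.02 ± 0.14 in FAR1OE in ethanol and 0.07 ± 0.01 in FAR1OE in glucose (SD, n = 3 in each group). It was -0.04 ± 0.15 in far1Δ in ethanol, -0.02 ± 0.07 in far1Δ in glucose, 0.02 ± 0.09 in wild type in ethanol and 0.01 ± 0.02 in wild type in glucose, the group the scores are set against. The difference in wild type in glucose lies near 0 by construction. Among the other groups, only FAR1OE in glucose had a mean difference that exceeded its SD. That value ranged from 0.0042 to 0.09 when single arrays were left out, with the lowest value from leaving out the second wild type glucose array.

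**Figure D1:**
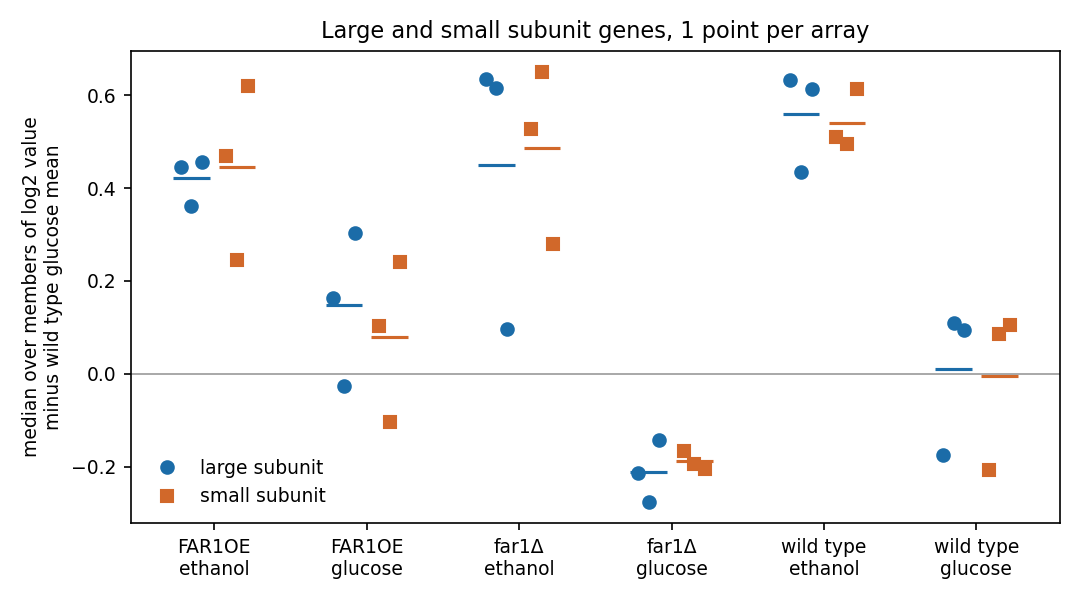
Subunit score in each of the 18 arrays, in log2 units against the mean of wild type glucose, by group. Circles are the large subunit (38 genes), squares the small subunit (28 genes) and short lines the group means. Both symbols of a group cover overlapping ranges, not always of like width, and the ethanol groups lie between 0.10 and 0.65.

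Large subunit. MRP20 (uL23m), a homologue of the bacterial tunnel exit protein L23, had the widest range of group means of all members, 1.73 in log2. In FAR1OE it read 45.8, 37.2 and 46.6 in ethanol against 18.7, 18.3 and 14.2 in glucose. In far1Δ it read 49.9, 48.6 and 41.2 in ethanol against 18.5, 11.6 and 16.6 in glucose. In wild type it read 58, 50.6 and 47 in ethanol against 18.9, 21 and 21.8 in glucose. Ethanol and glucose arrays were far apart in each strain. The log2 change was 1.32 ± 0.17 (SE, adjusted p = 1.02e-05) in FAR1OE, 1.58 ± 0.17 (SE, adjusted p = 1.05e-06) in far1Δ and 1.32 ± 0.17 (SE, adjusted p = 8.34e-06) in wild type.

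MRPL38 (uL14m), of the universal family of bacterial L14, read 179, 162 and 106 in ethanol against 94.5, 63.5 and 99.95 in glucose in FAR1OE. In far1Δ it read 165, 148 and 119.96 in ethanol against 48.2, 47.7 and 58.4 in glucose, and in wild type 130.4, 100.05 and 108 in ethanol against 59.9, 46.1 and 71.9 in glucose. Its groups did not overlap in any strain. The log2 change was 0.78 ± 0.22 (SE, adjusted p = 0.00815) in FAR1OE, 1.48 ± 0.22 (SE, adjusted p = 2.86e-05) in far1Δ and 0.94 ± 0.22 (SE, adjusted p = 0.00205) in wild type.

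MRPL28 (mL40), a protein of the mitochondrial large subunit with no bacterial counterpart, was among the largest rises in FAR1OE. It read 31.6, 44.5 and 40.04 in ethanol against 22.9, 19.7 and 22.3 in glucose there, without overlap, for a log2 change of 0.82 ± 0.16 (SE, adjusted p = 0.000564). In far1Δ its log2 change was 0.82 ± 0.16 (SE, adjusted p = 0.000507) and in wild type 0.77 ± 0.16 (SE, adjusted p = 0.00084). MRPL7 (uL5m), of the family of bacterial L5, was the one member that passed the threshold in FAR1OE and in neither other strain. It read 40.7, 43.5 and 59.7 in ethanol against 25.4, 18.1 and 37.8 in glucose in FAR1OE, a log2 change of 0.86 ± 0.30 (SE, adjusted p = 0.0274). In wild type it read 52.1, 40.3 and 25.1 in ethanol against 25.9, 41.8 and 48.5 in glucose, a log2 change of 0.0015 ± 0.30 (SE, adjusted p = 0.998), and in far1Δ the log2 change was 0.56 ± 0.30 (SE, adjusted p = 0.138). The test of the difference between the FAR1OE and the wild type change of MRPL7 gave 0.86 ± 0.42 (SE, adjusted p = 0.374), which did not pass, and the groups were apart in FAR1OE and overlapped in wild type.

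Small subunit. MRPS12 (uS12m), a homologue of the bacterial decoding centre protein S12, read 219.5, 189 and 255 in ethanol against 124, 117 and 168 in glucose in FAR1OE. In far1Δ it read 242, 239 and 177 in ethanol against 101, 97.4 and 85.3 in glucose, and in wild type 239, 209.7 and 211 in ethanol against 76.1, 86.3 and 111 in glucose. No glucose array reached an ethanol array of the same strain. The log2 change was 0.71 ± 0.17 (SE, adjusted p = 0.0036) in FAR1OE, 1.20 ± 0.17 (SE, adjusted p = 2.46e-05) in far1Δ and 1.29 ± 0.17 (SE, adjusted p = 1.09e-05) in wild type.

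MRPS5 (uS5m), of the family of bacterial S5, read 27.4, 26.3 and 22.8 in ethanol against 8.5, 9.6 and 12.4 in glucose in wild type, without overlap. Its log2 change was 0.77 ± 0.21 (SE, adjusted p = 0.00634) in FAR1OE, 0.96 ± 0.21 (SE, adjusted p = 0.0011) in far1Δ and 1.31 ± 0.21 (SE, adjusted p = 5.68e-05) in wild type. RSM7 (uS7m), of the family of bacterial S7 that organises the head of the small subunit, read 308, 245 and 230.4 in ethanol against 116, 89.8 and 109.7 in glucose in far1Δ, again without overlap. Its log2 change was 0.68 ± 0.16 (SE, adjusted p = 0.00278) in FAR1OE, 1.31 ± 0.16 (SE, adjusted p = 4.15e-06) in far1Δ and 0.93 ± 0.16 (SE, adjusted p = 0.00015) in wild type. Both genes rose in each strain.

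MRPS16 (bS16m), of the bacterial S16 family, read 118, 98.6 and 149 in ethanol against 56.8, 67 and 57.8 in glucose in FAR1OE, a log2 change of 0.99 ± 0.19 (SE, adjusted p = 0.00052). RSM28 (mS46), a protein of the mitochondrial small subunit, read 38.5, 56.9 and 74.8 in ethanol against 21.9, 29.4 and 32.5 in glucose in FAR1OE, a log2 change of 0.98 ± 0.21 (SE, adjusted p = 0.00117). Neither gene overlapped between carbon sources there, and both are among the 17 members whose log2 change in FAR1OE was above that in wild type, with 0.92 for MRPS16 and 0.79 for RSM28. Without the ethanol pair their FAR1OE changes were 0.84 and 0.76, below these wild type values from all arrays.

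MRP2 (uS14m) and RSM24 (mS35) had large changes in wild type and small ones in FAR1OE. MRP2 read 227, 113 and 241 in ethanol against 167, 152 and 183 in glucose in FAR1OE and 260.02, 293 and 287 in ethanol against 102, 109.5 and 149 in glucose in wild type. Its groups overlapped in FAR1OE and were apart in wild type. In FAR1OE the log2 change was 0.13 ± 0.26 (SE, adjusted p = 0.723), and in wild type it rose by 1.23 ± 0.26 (SE, adjusted p = 0.00097). RSM24 read 63.7, 43 and 52.7 in ethanol against 46.7, 47.4 and 43.2 in glucose in FAR1OE and 73, 71.3 and 79 in ethanol against 29.7, 30.2 and 40.9 in glucose in wild type, with overlap in FAR1OE and none in wild type. Its log2 change was 0.20 ± 0.16 (SE, adjusted p = 0.36) in FAR1OE and 1.15 ± 0.16 (SE, adjusted p = 1.49e-05) in wild type. The test of the difference between these changes gave -1.10 ± 0.37 (SE, adjusted p = 0.222) for MRP2 and -0.96 ± 0.23 (SE, adjusted p = 0.0843) for RSM24, so neither difference passed.

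The changes of these genes in FAR1OE rest in part on the arrays in doubt. With the ethanol pair and the first and the third FAR1OE glucose arrays all left out, MRP20, MRPL38, MRPL28, MRPL7, MRPS12, RSM7 and MRPS16 stayed past the threshold in FAR1OE, from 1.43 (adjusted p = 0.00068) for MRPL38 to 0.69 (adjusted p = 0.0269) for MRPS16. MRPS5 at 0.79 (adjusted p = 0.0703) and RSM28 at 0.66 (adjusted p = 0.0732) did not. MRPL7 missed it without the ethanol pair alone, at 0.69 (adjusted p = 0.11). In far1Δ MRP20, MRPL38, MRPL28, MRPS12, MRPS5, RSM7 and MRPS16 passed without these arrays too, as did MRP2 and RSM24.

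**Figure D2:**
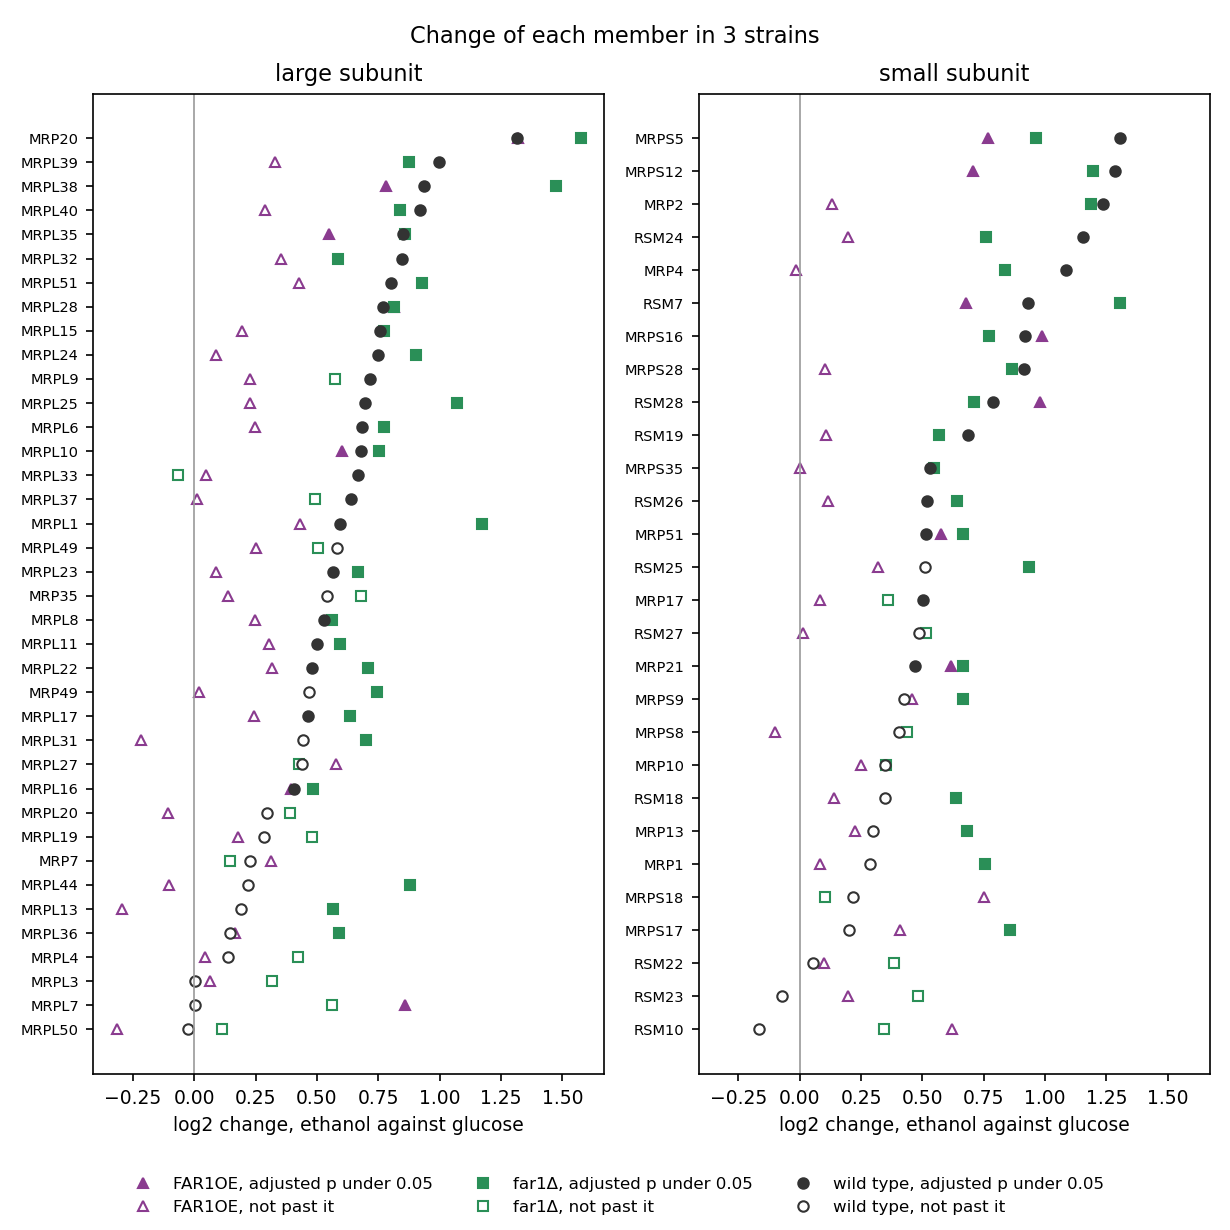
Log2 change in ethanol against glucose of the 38 large and 28 small subunit genes, ordered by the wild type change. Triangles are FAR1OE, squares far1Δ and circles wild type, filled where the adjusted p in limma was under 0.05; filled triangles number 7 in each panel, and filled squares and circles run along most of both columns.

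The members divided into sets by the strains in which they rose. All 3 strains were past the threshold for 14 members, namely MRP20, MRP21, MRP51, MRP8, MRPL10, MRPL16, MRPL28, MRPL35, MRPL38, MRPS12, MRPS16, MRPS5, RSM28 and RSM7, against 12.9% of all genes. They hold 6 large and 7 small subunit genes and MRP8. A further 21 rose in far1Δ and in wild type, and not past the threshold in FAR1OE. Those were MRP2, MRP4, MRPL1, MRPL11, MRPL15, MRPL17, MRPL22, MRPL23, MRPL24, MRPL25, MRPL32, MRPL39, MRPL40, MRPL51, MRPL6, MRPL8, MRPS28, MRPS35, RSM19, RSM24 and RSM26. Another 11 passed in far1Δ alone, MRP1, MRP13, MRP49, MRPL13, MRPL31, MRPL36, MRPL44, MRPS17, MRPS9, RSM18 and RSM25, and 4 in wild type alone, MRP17, MRPL33, MRPL37 and MRPL9. No share over all genes is given for the sets of 21, 11 and 4, so their sizes are not read as particular to members. A pass in one strain and not in another does not show a difference between them. No such difference passed its own test with all arrays in the fit. Across the 67 members the log2 changes of FAR1OE and wild type had a Pearson r of 0.38, those of FAR1OE and far1Δ 0.45, and those of far1Δ and wild type 0.67. Over all 5545 genes the same pairs gave 0.85, 0.86 and 0.91. These are descriptions, since genes measured on the same arrays are not independent.

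The sets depend on the arrays in doubt, and where no share of all genes is given below, their sizes are only listed. Without the ethanol pair 13 members rose in all 3 strains (11.7% of all genes), 26 in far1Δ and wild type but not past the threshold in FAR1OE (4.95%), 18 in far1Δ alone, 2 in wild type alone and 8 in no strain. Without the pair and the first and the third FAR1OE glucose arrays these sets held 9, 31, 17, 2 and 6 members, and 2 rose in FAR1OE alone. The Pearson r over the members was then 0.29 for FAR1OE and wild type, 0.44 for FAR1OE and far1Δ and 0.66 for far1Δ and wild type.

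In no strain did 16 members pass, 9 of the large subunit and 7 of the small. They were MRP10, MRP35, MRP7, MRPL19, MRPL20, MRPL27, MRPL3, MRPL4, MRPL49, MRPL50, MRPS18, MRPS8, RSM10, RSM22, RSM23 and RSM27. For comparison, 29.5% of all genes rose in at least 1 strain, and 51 of the 67 members did. The 3 members with the narrowest range of group means were all of the large subunit. MRPL3 (mL44), MRPL50 (bL9m) and MRPL4 (uL29m) spanned 0.317, 0.332 and 0.421 in log2 over the 6 groups. MRPL3 read 64.3, 59.4 and 48.5 in ethanol against 52.2, 61.4 and 57.2 in glucose in wild type, where the groups overlapped, a log2 change of 0.0047 ± 0.16 (SE, adjusted p = 0.986). MRPL50 read 13.3, 15.9 and 11.6 in ethanol against 16.6, 16.2 and 17.9 in glucose in FAR1OE, where each ethanol array lay below each glucose array, a log2 change of -0.32 ± 0.18 (SE, adjusted p = 0.166). MRPL50 changed by 0.11 in far1Δ and -0.02 in wild type.

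RSM22 is related to methyltransferases and is known as a factor of small subunit assembly more than as a structural protein. It read 13, 16.4 and 11.8 in ethanol against 14.7, 13.6 and 11.2 in glucose in wild type, with overlap, and its log2 change was 0.10 ± 0.22 (SE, adjusted p = 0.749) in FAR1OE, 0.38 ± 0.22 (SE, adjusted p = 0.163) in far1Δ and 0.05 ± 0.22 (SE, adjusted p = 0.869) in wild type. None of these passed. MRP8 read 151, 172 and 162 in ethanol against 94.8, 66.7 and 127 in glucose in FAR1OE, 178, 247 and 111 in ethanol against 66, 48 and 64.6 in glucose in far1Δ and 205, 127 and 138 in ethanol against 83.3, 65.7 and 94.6 in glucose in wild type. It had the second widest range of group means, 1.52 in log2, and rose by 0.79 ± 0.27 (SE, adjusted p = 0.0248) in FAR1OE, 1.52 ± 0.27 (SE, adjusted p = 0.000172) in far1Δ and 0.93 ± 0.27 (SE, adjusted p = 0.00927) in wild type.

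**Figure D3:**
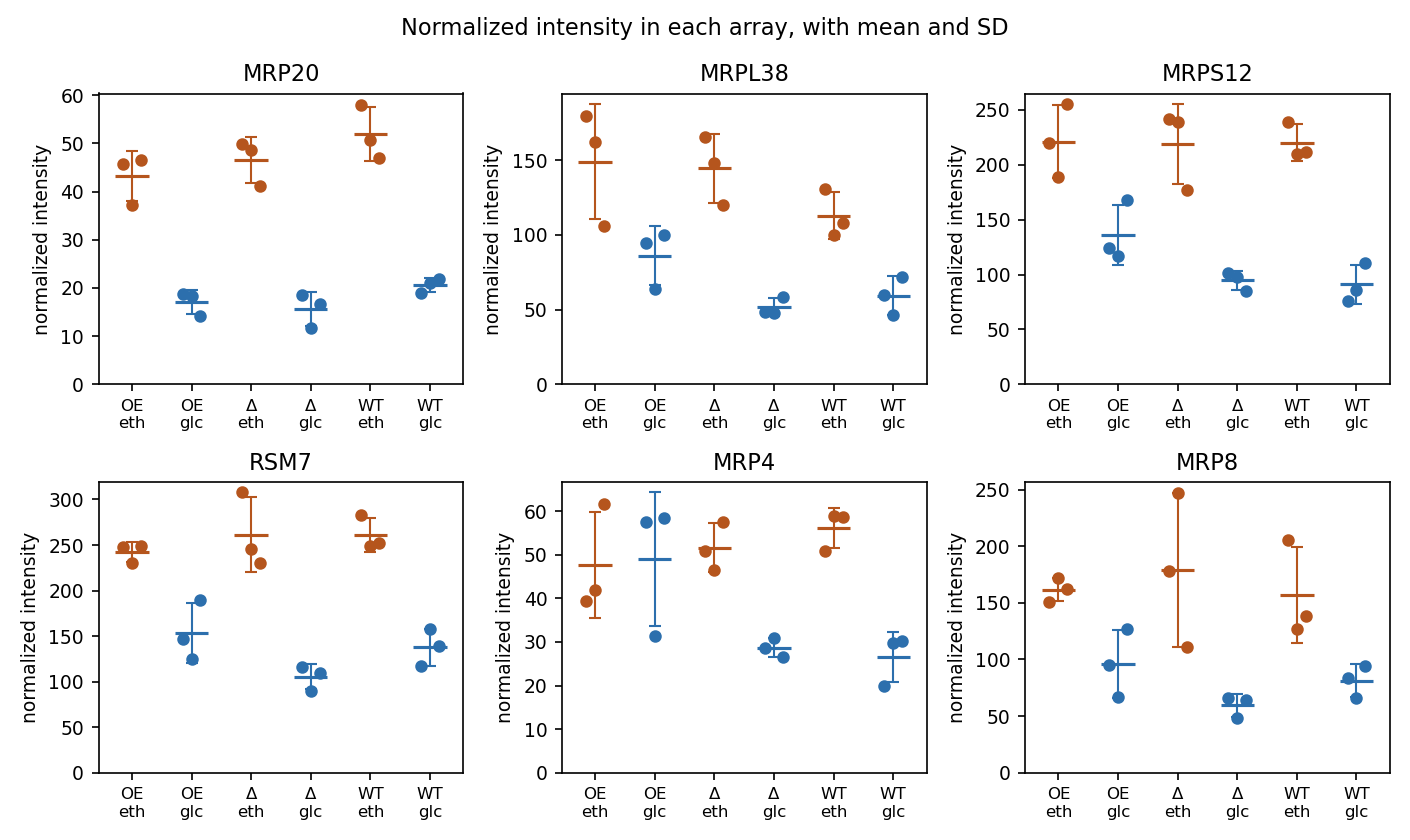
Normalized intensity of 6 members in each of the 3 arrays of each group, with the mean as a line and the SD as a bar (orange ethanol, blue glucose; OE is FAR1OE, Δ is far1Δ, WT is wild type, eth ethanol, glc glucose). MRP20, MRPL38, MRPS12 and RSM7 are apart between carbon sources in each strain, whereas the first and the third FAR1OE glucose arrays of MRP4 lie as high as ethanol arrays.

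By ancestry, 27 members have counterparts in all domains of life, 14 share theirs with bacteria only, and 24 are specific to mitochondria, as their RefSeq family names give it; MRP8 and RSM22 have no such name. Of the 27 universal members, 8 rose in FAR1OE (29.6%), 19 in far1Δ (70.4%) and 19 in wild type (70.4%). Of the 14 bacterial members, 3 rose in FAR1OE (21.4%), 9 in far1Δ (64.3%) and 8 in wild type (57.1%). Of the 24 mitochondrial members, 3 rose in FAR1OE (12.5%), 17 in far1Δ (70.8%) and 11 in wild type (45.8%). Beside the 17.4% of all genes in FAR1OE, the bacterial share was near and the mitochondrial share below it, whereas each class was above the 21.7% of far1Δ and the 22.4% of wild type. Without the ethanol pair 6 universal, 3 bacterial and 3 mitochondrial members rose in FAR1OE, and 22, 12 and 22 in far1Δ. No share over all genes stands beside these counts, so they are only listed. With all arrays, median log2 changes in FAR1OE, far1Δ and wild type were 0.32, 0.71 and 0.67 for the universal members, 0.25, 0.61 and 0.52 for the bacterial, and 0.20, 0.69 and 0.48 for the mitochondrial ones. The 3 classes each held members that rose and members that did not. The members lie on 14 chromosomes, and the only pairs that neighbour another gene of the mitochondrial ribosome are MRPS12 with RSM19 and MRPL1 with MRX14. RSM19 (uS19m), next to MRPS12 on the same strand, changed by 0.11 ± 0.20 (SE, adjusted p = 0.706) in FAR1OE, 0.57 ± 0.20 (SE, adjusted p = 0.0301) in far1Δ and 0.69 ± 0.20 (SE, adjusted p = 0.0105) in wild type.

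Few members were called between strains. A technical measure also differed between the strains, the 5′ to 3′ ratio of the hybridisation control BioDn. It was 0.456 to 0.575 in the 6 FAR1OE arrays, 0.174 to 0.571 in the 6 far1Δ arrays and 0.169 to 0.231 in the 6 wild type arrays. FAR1OE and wild type did not overlap in it, so strain and this measure cannot be told apart there. In far1Δ the 3 ethanol arrays lay above all wild type arrays, and the first glucose array was within the wild type range. The ratio was also higher in ethanol than in glucose in FAR1OE (0.536 to 0.575 against 0.456 to 0.504) and in far1Δ (0.555 to 0.571 against 0.174 to 0.476), and overlapped slightly in wild type (0.20 to 0.231 against 0.169 to 0.203). Its part in the results was not tested.

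In glucose, 0 of the 67 members differed past the threshold between far1Δ and wild type in limma, where 1.21% of all genes were higher and 0.361% lower in far1Δ. At an unadjusted p under 0.05 there were 7 of the 67, beside 772 of all 5545 genes. The signs were uneven, with 7 members above 0 and 60 below, and a median log2 difference of -0.22 beside -0.02 for all genes. The 3 far1Δ arrays lay below the 3 wild type arrays for 15 members (9.7% of all genes), and above them for 0 (8.85%). This direction depended on the scaling: on the deposited scale, where the median of all genes moved to 0.40, the members' median was 0.24 and 61 were above 0. On both scales the members' median was below that of all genes.

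The lowest in far1Δ was MRPS17 (uS17m), of the family of bacterial S17. It read 22.9, 27.8 and 20.02 in far1Δ glucose against 35.8, 45.2 and 35.9 in wild type glucose. The arrays did not overlap, and the log2 difference was -0.72 ± 0.18 (SE, adjusted p = 0.0605). It missed the threshold, and passed it at an adjusted p of 0.0413 without the ethanol pair and of 0.0487 without the first and the third FAR1OE glucose arrays, both of which enter the shared spread. MRPL51 (mL43) followed with -0.55 ± 0.25 (SE, adjusted p = 0.342). The highest values in far1Δ were those of RSM24, 0.21 ± 0.16 (SE, adjusted p = 0.605), and MRP4, 0.13 ± 0.23 (SE, adjusted p = 0.855), and in both the arrays overlapped.

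Between FAR1OE and wild type in glucose, 2 members rose and 0 fell, against 5.36% of all genes higher and 2.04% lower. Both are small subunit genes. MRP4 (uS2m), of the family of bacterial S2, read 57.5, 31.3 and 58.3 in FAR1OE glucose against 19.95, 29.7 and 30.2 in wild type glucose. MRPS28 (uS15m), of the family of bacterial S15, read 64.2, 53.5 and 69.1 in FAR1OE against 38.7, 35.4 and 45.8 in wild type. No arrays overlapped in either gene, and the second FAR1OE array was the lowest of its group in both. The log2 difference was 0.84 ± 0.23 (SE, adjusted p = 0.0316) for MRP4 and 0.63 ± 0.16 (SE, adjusted p = 0.0234) for MRPS28.

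The calls rested on the FAR1OE glucose arrays with the high actin ratio. Without the first and the third of them no member passed, and the median log2 difference over the members was -0.07, against 0.11 with all arrays, where all genes had 0.01 without them and 0.07 with them. The lone array left was taken to vary like the arrays of other groups, and the part of RNA state in these values was not tested. With all arrays 47 members were above 0, and without these arrays 28. Non-overlap was seen for 9 members with FAR1OE higher (15.3% of all genes) and 5 with FAR1OE lower (7.66%). No member passed either without the first FAR1OE, the third FAR1OE, the first wild type or the second wild type glucose array alone, or in a fit of only these 2 groups. The count was 5 without the second FAR1OE and 4 without the third wild type glucose array, and 16 on the deposited scale. Calls over all genes moved too, from 297 higher and 113 lower in the main fit. In either direction they ran from 169 to 663 with single arrays left out and from 62 to 906 under the other settings.

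In ethanol, 0 members passed between far1Δ and wild type in limma (0.0721% of all genes higher and 0% lower). An unadjusted p under 0.05 was seen for 5 members, beside 377 of all 5545 genes. The median was -0.12 with 24 members above 0, and 0.03 without the ethanol pair, and 0.05 on the deposited scale. No member separated the 3 far1Δ from the 3 wild type arrays in either direction, against 6.96% of all genes higher and 6.38% lower. MRPL33 (uL30m), of the family of bacterial L30, had the lowest value. It read 59, 143 and 75 in far1Δ ethanol against 153, 140.4 and 162 in wild type ethanol, with overlap, a log2 difference of -0.82 ± 0.26 (SE, adjusted p = 0.509). The highest was RSM10 (uS10m), at 0.44 ± 0.33 (SE, adjusted p = 0.857).

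Between FAR1OE and wild type in ethanol, 0 members passed in limma (0.234% of all genes higher and 0.144% lower). An unadjusted p under 0.05 was seen for 6 members, beside 603 of all 5545 genes. The median was -0.15, with 14 members above 0, and -0.20 without the ethanol pair. All FAR1OE arrays lay below all wild type arrays for 15 members, 12 of them of the large subunit (11.8% of all genes), and above them for 0 (7.95%). The lowest was MRP2, which read 227, 113 and 241 in FAR1OE ethanol against 260.02, 293 and 287 in wild type ethanol, a log2 difference of -0.61 ± 0.26 (SE, adjusted p = 0.391). MRPL9 (uL3m), of the family of bacterial L3, followed with -0.51 ± 0.23 (SE, adjusted p = 0.44). The highest were RSM10, 0.54 ± 0.33 (SE, adjusted p = 0.611), and MRPL38, 0.37 ± 0.22 (SE, adjusted p = 0.586), both with overlap.

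The carbon source change was smaller in FAR1OE than in wild type for 50 of 67 members, beside 3383 of all 5545 genes with a lower change. It was smaller in FAR1OE than in both other strains for 49 members, a count with no share over all genes beside it. The difference, FAR1OE change minus wild type change, had a median of -0.28 over the members (-0.31 large, -0.21 small) beside -0.10 over all genes. No member passed in limma (0.18% of all genes did), and the smallest adjusted p was 0.0843. An unadjusted p under 0.05 was seen for 13 members, beside 759 of all 5545 genes. MRP4 had the lowest value, -1.10 ± 0.32 (SE, adjusted p = 0.163). In MRP4 ethanol read 39.3, 42 and 61.7 in FAR1OE and 50.9, 58.9 and 58.6 in wild type, with overlap, and the glucose arrays given above did not overlap. Single arrays decided this result: without the second FAR1OE glucose array MRP4 (adjusted p = 0.00846) and MRPS28 (adjusted p = 0.0448) passed in limma, and RSM24 passed without the third wild type glucose array (adjusted p = 0.0306) or the first FAR1OE ethanol array (adjusted p = 0.0353).

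Without the first and the third FAR1OE glucose arrays the median of this difference was -0.10 over the members and -0.04 over all genes. The ethanol change in FAR1OE itself then had a median of 0.41 over the members, against 0.24 with all arrays, while 13 members rose in place of 15. Without these and the ethanol pair together, 11 rose in FAR1OE, with a median of 0.40, 57 rose in far1Δ and 42 in wild type. Without the ethanol pair alone 13 rose in FAR1OE, 57 in far1Δ and 41 in wild type. The median log2 change in far1Δ was then 0.79, and no share over all genes stands beside these counts of risen members.

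The other differences between strains gave no call with all arrays. The far1Δ change minus the wild type change had a median of 0.10, with 47 members above 0. Past the threshold in limma were 0 (0% of all genes), and 3 had an unadjusted p under 0.05 (460 of all 5545 genes). The highest value of this difference was MRPL44 (mL53), 0.66 ± 0.27 (SE, adjusted p = 0.575), and the lowest MRPL33, -0.73 ± 0.36 (SE, adjusted p = 0.614). The FAR1OE change minus the far1Δ change had a median of -0.45 beside -0.11 over all genes, with 8 members above 0 (2162 of all 5545 genes). Past the threshold in limma were 0 (0.162% of all genes), and 21 had an unadjusted p under 0.05 (740 of all 5545 genes). The median of this difference over the members ran from -0.60 to -0.26 under the alternatives other than single arrays left out. The lowest value of this difference was MRP2, -1.05 ± 0.37 (SE, adjusted p = 0.262). MRPL44 gave -0.98 ± 0.27 (SE, adjusted p = 0.178). Without the second FAR1OE glucose array MRP4 and MRPL44 passed in this difference (adjusted p = 0.0291 for each), and without the ethanol pair RSM18 (bS18m) did, at -0.78 (adjusted p = 0.0497). MRPL44 was the 1 member with a pair of probe sets, and the weaker of them gave log2 changes of 0.26 in far1Δ and 0.23 in wild type, against 0.88 and 0.22 for the one used.

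Mitochondrial ribosomal proteins under other names numbered 15, among them YML6, IMG1 and MHR1 of the large subunit and PET123 and EHD3 of the small. Of these, 7 rose in FAR1OE, 9 in far1Δ and 9 in wild type, and none fell, with medians of 0.41, 0.76 and 0.75 in these strains. The shares were 46.7%, 60% and 60%, each above that of all genes. EHD3 (mS47), which resembles a metabolic hydrolase, read 67.1, 62.3 and 72.4 in FAR1OE in ethanol against 31.4, 32.4 and 32.2 in glucose, a log2 change of 1.06 ± 0.16 (SE, adjusted p = 4.78e-05). It read 67, 82.3 and 90.7 in far1Δ in ethanol against 41.3, 38.2 and 42.7 in glucose, a change of 0.96 ± 0.16 (SE, adjusted p = 0.000114). In wild type it read 83.2, 103 and 97.2 in ethanol against 29.2, 40.4 and 47.3 in glucose, a change of 1.29 ± 0.16 (SE, adjusted p = 4.31e-06). No arrays overlapped. In glucose QRI5 read 66, 46.2 and 64.5 in FAR1OE against 33.7, 35.4 and 26 in wild type, a log2 difference of 0.88 ± 0.20 (SE, adjusted p = 0.0119) without overlap. VAR1, the ribosomal protein encoded in mitochondrial DNA itself, read 0.00499 to 6.59 over the 18 arrays, near the bottom of the scale. Its changes were not read singly, but it is 1 of the 15 genes behind the shares and medians of this list.

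Genes of factors that work with the ribosome were called higher in ethanol at larger shares than all genes in far1Δ and wild type, and at shares near that of all genes in FAR1OE. Of 21 translation factors and activators, 5 rose in FAR1OE, 13 in far1Δ and 10 in wild type, and none fell, with medians of 0.41, 0.73 and 0.60. These are 23.8%, 61.9% and 47.6% of the list, beside 17.4%, 21.7% and 22.4% of all genes in the same strains. MEF2, an elongation factor G homologue that acts in ribosome recycling, read 54.9, 49 and 53.7 in FAR1OE in ethanol against 28.2, 32.9 and 32.7 in glucose, a log2 change of 0.74 ± 0.16 (SE, adjusted p = 0.00134). Its change was 1.58 ± 0.16 (SE, adjusted p = 4.18e-07) in far1Δ and 1.15 ± 0.16 (SE, adjusted p = 1.64e-05) in wild type. MSS51, which couples the synthesis of a cytochrome oxidase subunit to its assembly, changed by 0.90 ± 0.17 (SE, adjusted p = 0.000334) in far1Δ and 0.95 ± 0.17 (SE, adjusted p = 0.000208) in wild type. In glucose MSS51 read 157, 143 and 204 in FAR1OE against 87.8, 98.4 and 130.4 in wild type, without overlap, a log2 difference of 0.67 ± 0.17 (SE, adjusted p = 0.0228).

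Of 14 mitochondrial tRNA synthetases, 3 rose and 1 fell in FAR1OE, 9 rose in far1Δ, and 8 rose and 1 fell in wild type, with medians of 0.10, 0.65 and 0.56. The rises are 21.4%, 64.3% and 57.1% of the list, so the share in FAR1OE was near that of all genes. MSY1, for tyrosine, changed by 0.62 ± 0.21 (SE, adjusted p = 0.0271) in FAR1OE, 1.26 ± 0.21 (SE, adjusted p = 0.000114) in far1Δ and 1.25 ± 0.21 (SE, adjusted p = 0.000115) in wild type. DIA4, for serine, changed by 1.57 ± 0.22 (SE, adjusted p = 1.71e-05) in far1Δ. The one that fell in FAR1OE was MSR1, for arginine, at -0.43 ± 0.17 (SE, adjusted p = 0.048), and the one that fell in wild type was MSW1, for tryptophan, at -0.72 ± 0.28 (SE, adjusted p = 0.0476), with overlapping arrays. Of 11 assembly and membrane attachment factors, 2 rose in FAR1OE, 6 in far1Δ and 4 in wild type, with medians of -0.11, 0.67 and 0.59. These are 18.2%, 54.5% and 36.4% of the list, again near the share of all genes in FAR1OE, where 5 of the 11 were above 0. MBA1, the membrane receptor of the mitochondrial ribosome, read 91.8, 91.6 and 87.9 in wild type in ethanol against 43.3, 44.4 and 33.9 in glucose, a log2 change of 1.16 ± 0.15 (SE, adjusted p = 8.61e-06). It changed by 0.90 ± 0.15 (SE, adjusted p = 0.000154) in FAR1OE and 1.59 ± 0.15 (SE, adjusted p = 2.04e-07) in far1Δ.

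The respiratory chain and ATP synthase join subunits made by the mitochondrial ribosome with many that are made in the cytosol, and the transcripts listed here are of nuclear genes. All 36 genes of the list of respiratory chain and ATP synthase subunits rose in each of the 3 strains, with medians of 1.48 in FAR1OE, 2.02 in far1Δ and 1.85 in wild type. In glucose 12 of them rose in FAR1OE against wild type (33.3%, beside 5.36% of all genes), with a median of 0.40, a comparison that includes the first and the third FAR1OE glucose arrays. The 81 genes of the cytosolic ribosome went the other way. In FAR1OE 40 fell and 0 rose, in far1Δ 39 fell and 0 rose, and in wild type 25 fell and 2 rose, beside 22.8%, 21.2% and 20.9% of all genes that fell, with medians of -0.38, -0.35 and -0.21. The lists were set side by side by counts and medians, with no test between them.

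The ethanol pair and the first and the third FAR1OE glucose arrays were also left out together, which leaves 1 glucose array in FAR1OE. The 15 ribosomal proteins under other names then had median changes in ethanol of 0.49 in FAR1OE and 0.93 in far1Δ. In the same strains medians were 0.41 and 0.78 for the translation factors and 0.26 and 0.56 for the tRNA synthetases. They were 0.07 and 0.80 for the assembly factors, 1.77 and 2.17 for the respiratory genes and -0.38 and -0.24 for the cytosolic ribosomal proteins. Counts of these lists in ethanol against glucose are left out, as no share over all genes stands beside them. EHD3 at 0.99 (adjusted p = 0.00945) and MBA1 at 0.77 (adjusted p = 0.0327) still passed in FAR1OE, whereas MEF2 at 0.65 (adjusted p = 0.0819), MSY1 at 0.54 (adjusted p = 0.244) and MSR1 at -0.12 (adjusted p = 0.793) did not. Between FAR1OE and wild type in glucose, 0 respiratory genes rose, with a median of 0.25, and QRI5 at 0.55 (adjusted p = 0.428) and MSS51 at 0.46 (adjusted p = 0.517) did not pass.

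**Figure D4:**
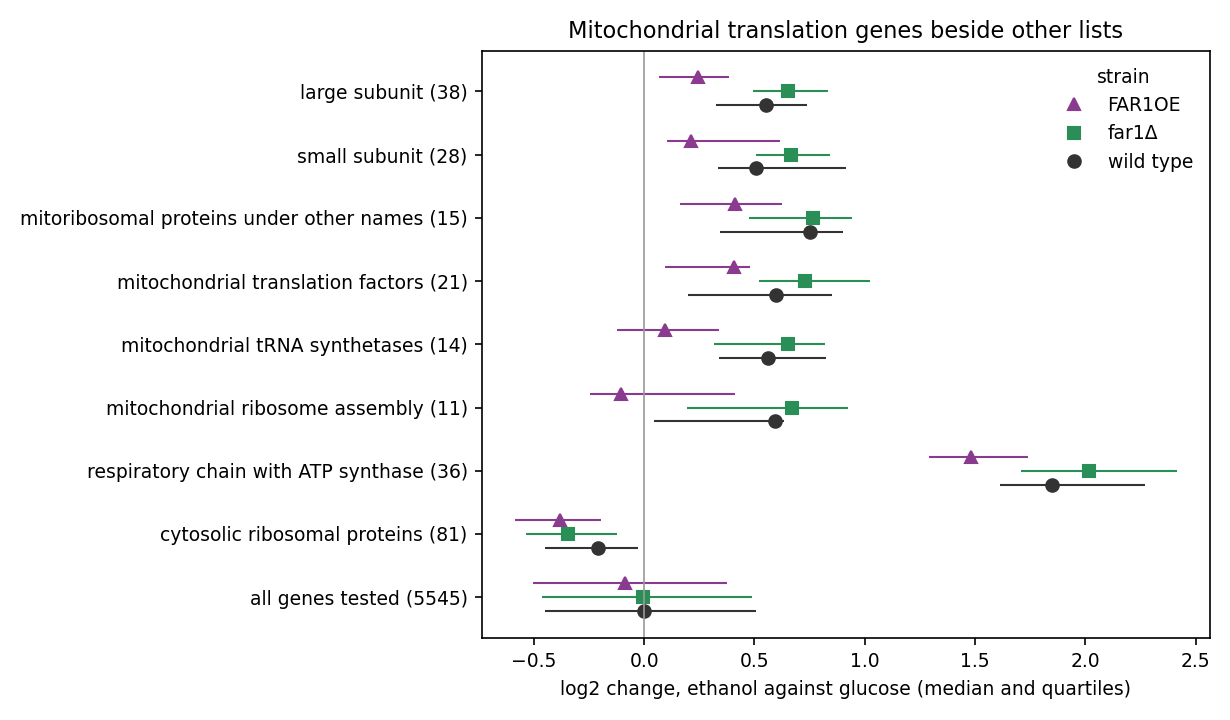
Median log2 change in ethanol against glucose for both subunits, the 6 other lists and all genes tested (number of genes in brackets), with lines from the first to the third quartile. Triangles are FAR1OE, squares far1Δ and circles wild type; both subunits lie between all genes and the respiratory chain, and the cytosolic ribosomal proteins lie below 0.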

How the data were processed

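Per the labels, total RNA was biotin labelled with the One-Cycle kit and hybridised to yeast S98 arrays, and per the submitters' processing notes the scans were processed with GCOS. No source used here names the signal algorithm or any scaling. Values were deposited as intensity on a linear scale, 9335 probe sets by 18 arrays. Their 2% trimmed means differed between arrays (35.3 to 77.9), above the tolerance of 5%, so log2(intensity + 0.4) was quantile normalized; 0.4 is the 10th percentile of all values. Printed normalized intensities are transformed back. After 60 control probe sets and those without 1 gene were left out, 6504 probe sets stood for 5656 genes. Genes above the array's 20th percentile in at least 3 arrays were tested, 5545 genes and all 67 members, whose deposited values ran from 2.8 to 397.4. With limma 3.58.1 in R 4.3.3, 6 group means were fitted to all arrays, with an intensity trend and Benjamini-Hochberg adjustment over all tested genes. Residual degrees of freedom were 12, and the number of arrays limits the precision. The fit was tested on simulated data.

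Members and lists were chosen with earlier results of these data known. The genes named are, by rule, for each comparison up to 5 rises and 5 falls past the threshold or else the 2 largest changes each way, MRP8, RSM22, the 3 widest and 3 narrowest ranges, and up to 3 called genes of each other list; RSM19, VAR1 and the genes named only in sets were added after their values were seen. Subunits follow the RefSeq family names, which put MRP35 in the large subunit. RSM22 has no such name and was put in the small subunit. Gene sequences were not used here. Alternatives were the deposited scale, median centring, another pseudocount, no filter, the mean of probe sets, no intensity trend, a fit of only the groups compared, a replicate block and left-out arrays. The difference between the FAR1OE and far1Δ changes and leaving out 4 arrays together were added after seeing the data.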

Additional observations from a re-analysis of the deposited data

How the results depend on the processing

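Of the member counts and subunit differences under all alternatives, 406 stayed within 1.5 times or 1 SD of the reported value and 29 moved. A subunit difference within 1 SD was counted as kept even where its sign changed. Several counts were 0 in the main fit and most subunit differences were smaller than their SD, so this tally says little about stability. Of the values of single named members, 1592 kept their call, 25 lost it, 16 gained it and 20 changed sign. All 20 came from values not past the threshold. On the deposited scale 63 members rose in wild type (2361 genes higher and 173 lower over all) and 16 in FAR1OE against wild type in glucose, the large minus small score of FAR1OE in glucose was 0.0465, as it was with array medians centred, and MRPL50 changed by 0.7159 in wild type and 0.1078 in FAR1OE. With array medians centred MRPL3 changed by -0.0111 in wild type and MRPL4 by -0.0458 in FAR1OE. A fit of only the groups compared called 0 members in FAR1OE against wild type in glucose. Without the ethanol pair 1 member passed in far1Δ against wild type in glucose and 1 in the FAR1OE minus the far1Δ change, and the changes were -0.07 for MRPL4 and -0.0126 for RSM22 in FAR1OE and -0.0128 for MRPL7 in the FAR1OE minus the far1Δ change. Without the first and the third FAR1OE glucose arrays these comparisons of FAR1OE and of far1Δ with wild type in glucose gave 0 and 1 members and the subunit difference 0.0767; without all 4 arrays they gave 0 and 1 members and 0.0788, and MRPL4 changed by -0.001 in FAR1OE.

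Leaving out single arrays gave counts of 12 to 17 in ethanol against glucose in FAR1OE, 40 to 57 in far1Δ and 23 to 42 in wild type. It gave 0 to 5 for FAR1OE and 0 to 1 for far1Δ against wild type in glucose, 0 to 2 for the FAR1OE minus the wild type change and 0 to 2 for the FAR1OE minus the far1Δ change. The subunit difference of FAR1OE in glucose ran from 0.0042 to 0.09. In ethanol it ran from -0.0941 to 0.0458 in FAR1OE, -0.1097 to 0.0377 in far1Δ and -0.0322 to 0.0584 in wild type. In far1Δ in glucose it ran from -0.0636 to 0.0073, so its sign was not fixed in any of these other groups. Carbon source changes in wild type ran from -0.0817 to 0.1207 for MRPL3, -0.0861 to 0.0941 for MRPL50 and -0.0798 to 0.1537 for RSM22; MRPL50 in far1Δ ran from -0.0033 to 0.2781. In FAR1OE they ran from -0.0794 to 0.1792 for MRPL3, -0.0699 to 0.1553 for MRPL4 and -0.0755 to 0.2926 for RSM22, and MRP4 in far1Δ against wild type in glucose from -0.0638 to 0.2297. With the replicate block 14 members rose in FAR1OE, 47 in far1Δ and 36 in wild type, 2 in FAR1OE against wild type in glucose and 0 in the other comparisons, so no count moved by over 1.5 times. Deviations of arrays with the same number correlated with r from -0.38 to 0.18, and 7 of 18 arrays were closest to one of their own number. This check showed no pairing of the cultures by number and cannot exclude one.

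The causes of these shifts were not tested. The number of arrays, 3 a group, limits the precision.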
